A study of Mus musculus with 6 samples.

Results

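The genes described here encode the mitochondrial ribosomal proteins of the mouse, that is, the protein-coding genes of GENCODE release M21 with a symbol of the form Mrpl or Mrps followed by a number. The rule that picks the genes of this family reads the symbol alone and no measured value. The authors' deposited table held 77 of the 78 genes that meet this rule, among 22432 genes in all; 48 of the 77 carry a large subunit symbol (Mrpl) and 29 a small subunit symbol (Mrps). Mrpl53 was not analysed here. No member was lost to the authors' filter on low counts, and an adjusted p-value was given for each of the 77.

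RNA abundance was compared between CDH1+/THY1+ and CDH1-/THY1+ male germline stem cells, with 3 samples in each group, by sequencing of ribosome-depleted total RNA. Germline stem cells are the cultured counterpart of the spermatogonia that maintain sperm production, and CDH1 and THY1 are surface proteins carried by such cells. Both groups came from the same 3 cultures, all male, at passage 6 to 8, kept on DR4 mouse embryonic feeder fibroblasts with GDNF and FGF. Culture RP7 was from mice of 8 weeks and culture RP5 from mice of 19 days, both of the strain labelled OCT4/GFP; Dox-OCT4, and culture WT1 was from C57BL/6 mice of 5 weeks. The labels do not say whether a culture came from 1 animal or several, or whether doxycycline was given. The table holds 1 comparison for the whole data set and no value per library. A mean normalised count over the 6 libraries, a log2 fold change, its standard error and an adjusted p-value are therefore given for each gene, with no value per sample. Throughout, "higher" means higher in CDH1+/THY1+ cells, a direction that rests on the name of the table, since Cdh1 itself was not analysed here. Most of the cell type markers given below run against the group names under this direction. A gene was called higher or lower where the authors' deposited table gave it an adjusted p under 0.05 (DESeq2).

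Mitochondria carry their own ribosomes, which translate the few messages of the mitochondrial genome, all for subunits of the respiratory chain and ATP synthase. The RNA of these ribosomes is made inside the organelle, whereas every one of their proteins is encoded in the nucleus, made in the cytosol and imported. Compared with the bacterial ribosome they have less RNA and more protein: many of the proteins have a bacterial counterpart, and others are found only in mitochondria. In the germ line, spermatogonial stem cells hold relatively few, simple mitochondria, and respiration increases as the cells differentiate.

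Mitochondrial ribosomal protein genes changed in both directions and mostly by little. Of the 77 genes, 18 were called higher, 7 lower and 52 were not called. The largest increases were those of the small subunit genes Mrps28, at 2.10-fold, and Mrps15, at 1.89-fold, and the largest decrease was that of Mrps22, at 1.62-fold, in the authors' deposited table. The 25 called members were 32.5% of the family. Over all 19211 genes with an adjusted p, 33.5% were called, 17.1% higher and 16.4% lower. Among the 7308 genes whose mean count lay in the range of the members, 195 to 1699, the corresponding shares were 43.8%, 22.8% and 21.0%. The share of members called higher, 23.4%, was thus close to that of genes at the same mean count, and the share called lower, 9.09%, was below it; no test of either difference was made.

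The members' changes were also small beside those of genes at the same mean count, a difference that was not tested. The median log2 fold change of the members was 0.08, with quartiles of -0.18 and 0.40 and a range from -0.70 to 1.07, in the authors' deposited table. For the genes in the same range of mean counts the median was 0.03 and the quartiles were -0.34 and 0.44. Only 6 members, 7.79%, were called with a change of at least 1.5-fold, 5 of them higher and 1 lower, against 30.8% of genes in that range. A change of at least 2-fold was called for 1 member, 1.30%, against 11.5%. The standard errors of the members, from 0.12 to 0.23 with a median of 0.17, bound what remained undetected. The 95% interval of the log2 fold change, taken as 1.96 standard errors on either side, lay inside a 2-fold change in either direction for 72 members, and inside a 1.5-fold change for 35. The smallest change that was called was 1.28-fold and the largest that was not was 1.35-fold. The deposited fold changes look shrunken towards 0, so these intervals describe the deposited values and may be too narrow at their outer ends.

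**Figure D1:**
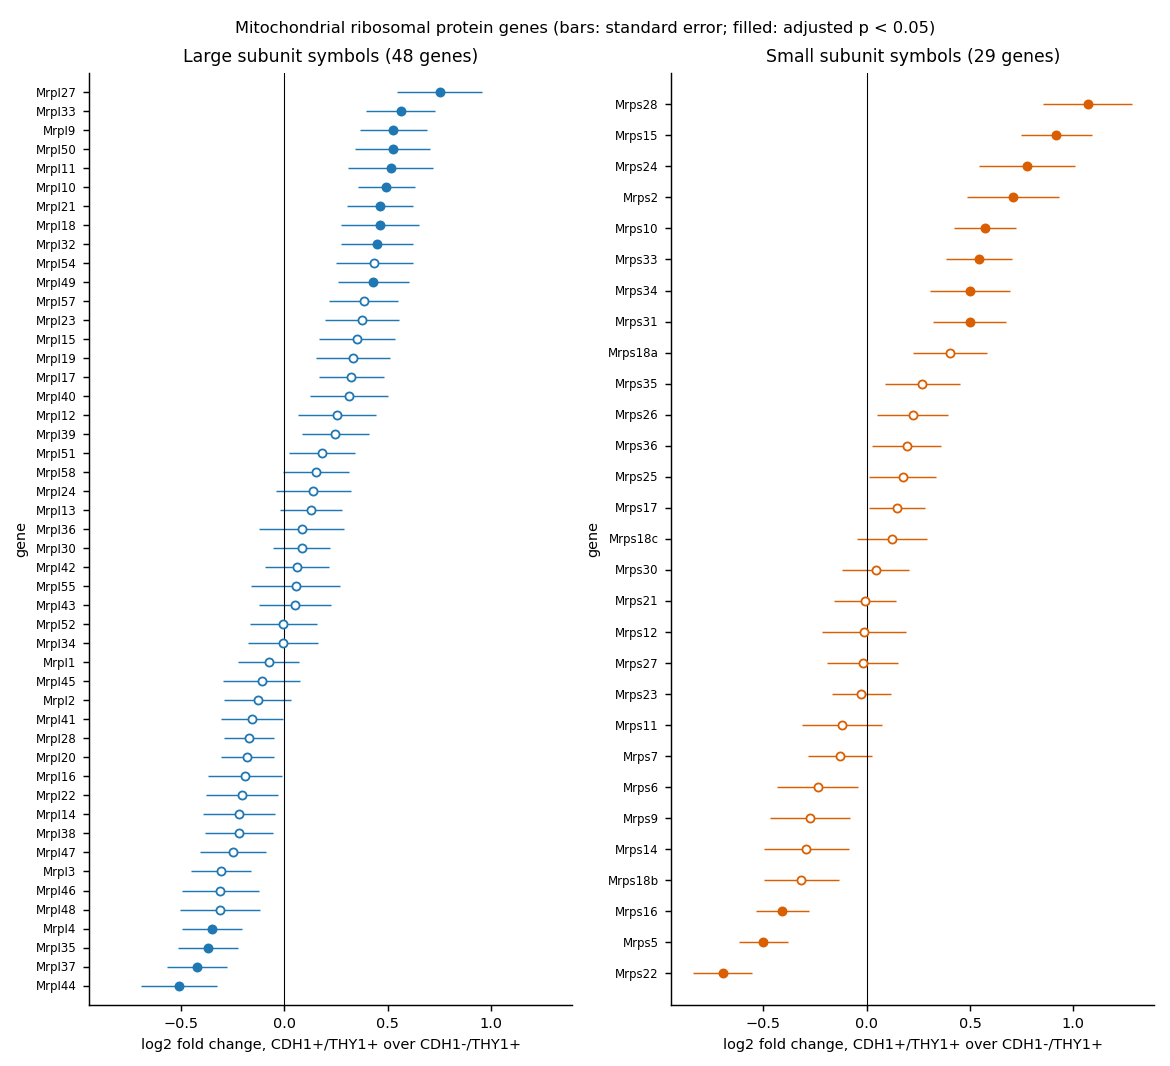
Log2 fold change of CDH1+/THY1+ over CDH1-/THY1+ cells (horizontal) for the 48 large (blue) and 29 small (orange) subunit genes, each set in order, as deposited by the authors; bars are the deposited standard errors and filled points are called members. The 18 higher members reach 1.07 and the 7 lower ones -0.70, while the 52 open points run from -0.32 to 0.43.

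The cells differed strongly in germ cell markers, and fewer cells of a type and less RNA per cell cannot be told apart in bulk RNA. Of 24 germ cell markers, 19 were lower in CDH1+/THY1+ cells and 1, Pou5f1, was higher, with a median log2 fold change of -1.49 in the authors' deposited table. Of 28 fibroblast markers, 9 were higher and 0 lower by DESeq2 (17 and 0 at an unadjusted p under 0.05), with a median of 0.67 there. Of 8 markers of testis soma and macrophages, 7 had an adjusted p and 2 were higher, Cd68 and Ptprc. The shares called were 83.3% of the germ cell, 32.1% of the fibroblast and 25.0% of the soma and macrophage markers. Over all genes with an adjusted p, 33.5% were called and 17.1% were called higher. Most of these markers run against the group names, since CDH1 is carried by germline stem cells and the feeders were fibroblasts. The stated direction rests on a name alone and could not be checked here. Were it reversed, every "higher" and "lower" in this text would be exchanged. Levels of these markers in each group cannot be had from the table, and their part in the changes of the mitochondrial ribosomal protein genes was not tested.

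Among the small subunit genes, 8 of 29 were higher and 3 lower, with a median log2 fold change of 0.12 in the authors' deposited table. Mrps28, a mitochondrial relative of bacterial ribosomal protein S1, had the lowest mean normalised count of the members, 195, though not the lowest level per length of transcript. It rose by 1.07 ± 0.22 on the log2 scale (SE; adjusted p = 9.5e-06, DESeq2, the authors' deposited table). Mrps15, the counterpart of bacterial S15, which binds the RNA of the small subunit platform, had a mean count of 359 and rose by 0.92 ± 0.17 (adjusted p = 1.26e-06, the authors' deposited table). Those were the only 2 members with a lower bound of the 95% interval above 0.40.

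Then came Mrps24, the counterpart of bacterial S3, which lies in the head near the entry of the messenger RNA. It rose by 0.78 ± 0.23 (adjusted p = 0.00367, mean count 523, the authors' deposited table). Mrps2, the counterpart of S2, followed with 0.71 ± 0.22 (adjusted p = 0.00617, mean count 680, the authors' deposited table). Mrps10, the counterpart of S10 in the head, rose by 0.57 ± 0.15 (adjusted p = 0.000794, the authors' deposited table). The mitochondria-specific Mrps33 rose by 0.54 ± 0.16 (adjusted p = 0.00292, the authors' deposited table). Mrps34 and Mrps31, also found only in mitochondria, both had a log2 fold change of 0.50 in the authors' deposited table, with adjusted p-values of 0.0297 and 0.0166.

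The 3 small subunit genes that fell had mean normalised counts above the median of the family. Mrps22, a mitochondria-specific protein whose loss in humans impairs the small subunit, had a mean count of 983 and fell by 0.70 ± 0.14 on the log2 scale (adjusted p = 9.45e-06, the authors' deposited table). Mrps5, the counterpart of bacterial S5, which takes part in decoding accuracy, had the highest mean count of the small subunit genes, 1537, and fell by 0.50 ± 0.12 (adjusted p = 0.000193, the authors' deposited table). Mrps16, the counterpart of S16, fell by 0.41 ± 0.13 (adjusted p = 0.00654, mean count 1016, the authors' deposited table). So a single subunit held both the member with the largest increase and the member with the largest decrease, at mean counts of 195 and 983.

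The regions just before the start sites of Mrps22 and Mrps15 are shown because these members had the largest called decrease and the smallest adjusted p of the family, respectively. Sequences are those of RefSeq for build GRCm38.p6, read 5′ to 3′ on the strand of the gene, and end at or just before the start site. The Mrps22 stretch is chr9:98601680-98601929 (minus strand) and the Mrps15 stretch is chr4:126046678-126046924 (plus strand). Capitals mark the one match to CCGGAAG, the core letters bound by ETS factors such as GABPA, which begins 11 bases before the start of Mrps22. No match to this motif or to the NRF1 and YY1 motifs described further on was found in the Mrps15 stretch.
Mrps22: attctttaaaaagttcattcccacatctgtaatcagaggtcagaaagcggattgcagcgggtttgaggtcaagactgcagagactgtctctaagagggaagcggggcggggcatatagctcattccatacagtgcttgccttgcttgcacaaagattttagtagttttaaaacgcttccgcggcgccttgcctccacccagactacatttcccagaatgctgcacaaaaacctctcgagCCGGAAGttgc
Mrps15: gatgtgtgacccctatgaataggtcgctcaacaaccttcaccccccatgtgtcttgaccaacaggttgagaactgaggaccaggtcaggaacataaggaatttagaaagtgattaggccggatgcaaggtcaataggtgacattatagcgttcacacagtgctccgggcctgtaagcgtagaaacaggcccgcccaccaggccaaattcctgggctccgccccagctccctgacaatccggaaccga

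Among the large subunit genes, 10 of 48 were higher and 4 lower, with a median log2 fold change of 0.08 in the authors' deposited table. Mrpl27, whose bacterial counterpart reaches towards the catalytic centre, was the only one called with a change over 1.5-fold, at 0.75 ± 0.20 (adjusted p = 0.00136, mean count 290, the authors' deposited table). Mrpl33 followed at 0.56 ± 0.17 (adjusted p = 0.0037, the authors' deposited table). Then came Mrpl9 (0.53), the mitochondria-specific Mrpl50 (0.52), Mrpl21 (0.46), Mrpl18 (0.46), Mrpl32 (0.45) and the mitochondria-specific Mrpl49 (0.43), log2 fold changes in the authors' deposited table with adjusted p-values from 0.00489 for Mrpl9 to 0.0431 for Mrpl18. Mrpl32 is processed by the m-AAA protease on import, a step needed for ribosome assembly.

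The stalk and its base, where translation factors bind, held the 2 remaining higher members. Mrpl11 rose by 0.51 ± 0.21 (adjusted p = 0.0387) and Mrpl10 by 0.49 ± 0.14 (adjusted p = 0.00189) in the authors' deposited table. Mrpl12, which Mrpl10 anchors to the ribosome and which also binds the mitochondrial RNA polymerase, was not called, with 0.25 ± 0.19 (adjusted p = 0.31, the authors' deposited table). The 3 stalk genes were therefore on the same side of 0, with intervals that overlap.

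The 4 large subunit genes that fell were Mrpl44, Mrpl37, Mrpl35 and Mrpl4. Mrpl44, a mitochondria-specific protein related to RNase III enzymes, fell by 0.51 ± 0.18 (adjusted p = 0.0196, the authors' deposited table). The mitochondria-specific Mrpl37 fell by 0.42 ± 0.15 (adjusted p = 0.0139, the authors' deposited table). Mrpl35, the counterpart of bacterial L35, fell by 0.37 ± 0.14 (adjusted p = 0.0307) and Mrpl4 by 0.35 ± 0.15 (adjusted p = 0.0444), both in the authors' deposited table. Each of these 4 decreases was under 1.5-fold.

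Several members with well-known roles were not called. Mrps12, a decoding centre protein, had a log2 fold change of -0.01 ± 0.20 (adjusted p = 0.97, the authors' deposited table). Mrpl58, a peptidyl-tRNA hydrolase built into the large subunit that rescues stalled ribosomes, had 0.15 ± 0.16 (adjusted p = 0.505), and Mrpl36 had 0.08 ± 0.21 (adjusted p = 0.796), values of the authors' deposited table. Mrpl3, which lies near the catalytic centre, had -0.31 ± 0.15 (adjusted p = 0.0896), and Mrps6 had -0.24 ± 0.20 (adjusted p = 0.373), values of the authors' deposited table. Mrpl41, which has also been described as a regulator of the cell cycle, had -0.16 ± 0.15 (adjusted p = 0.458, the authors' deposited table).

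A few symbols name the wrong place. The 3 relatives of bacterial S18 occupy different positions, Mrps18a in the large subunit and Mrps18b and Mrps18c in the small one, and none was called. Their log2 fold changes in the authors' deposited table were 0.40 ± 0.18 (adjusted p = 0.064) for Mrps18a, -0.32 ± 0.18 (adjusted p = 0.174) for Mrps18b and 0.12 ± 0.17 (adjusted p = 0.619) for Mrps18c. Mrps18a and Mrps18b lay on opposite sides of 0 with 95% intervals that did not overlap, from 0.05 to 0.76 and from -0.67 to 0.04; the difference between the 2 genes was not tested. Mrps30, which sits in the large subunit, had 0.04 ± 0.16 (adjusted p = 0.87, the authors' deposited table). Mrps36, now known as a component of the oxoglutarate dehydrogenase complex rather than of the ribosome, had 0.19 ± 0.17 (adjusted p = 0.397, the authors' deposited table). Placed by structure, 50 genes of the large subunit had 10 higher and 4 lower and 26 of the small subunit had 8 higher and 3 lower, the same counts as by symbol. The median log2 fold change of the small subunit genes was 0.06 by structure against 0.12 by symbol, and that of the large subunit genes was 0.08 either way, so the order of the 2 medians depended on the assignment.

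The members nearest to the threshold on the uncalled side were Mrpl54 (0.43, adjusted p = 0.0559), Mrpl57 (0.38, adjusted p = 0.0578) and Mrps18a in the authors' deposited table. The other uncalled members ranged from -0.32 for Mrps18b to 0.37 for Mrpl23 on the log2 scale in the authors' deposited table. Of the 52 uncalled members, 26 lay above 0 and 26 below.

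Called members were found among proteins of bacterial type and among those specific to mitochondria. In the large subunit, 8 of 30 genes with a bacterial counterpart were higher and 2 lower, and 2 of 20 mitochondria-specific genes were higher and 2 lower. In the small subunit, 5 of 16 genes of bacterial type were higher and 2 lower, and 3 of 10 mitochondria-specific genes were higher and 1 lower. The median log2 fold changes of these 4 classes, in the order given, were 0.11, 0.06, -0.01 and 0.20 in the authors' deposited table. With 20 to 30 and 10 to 16 genes per class these counts are small, and no difference between classes was tested.

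Members were also grouped by place in the ribosome, in groups drawn up after the values had been seen. The groups are selections and not full lists of the proteins of a place. Those of the head, platform and body hold genes of bacterial type only, so their medians describe the listed genes alone. Among these groups the stalk had the highest median log2 fold change, 0.49 over 3 genes, in the authors' deposited table. The listed genes of the body of the small subunit, Mrps5, Mrps12, Mrps16 and Mrps17, had the lowest, -0.21, with 2 of 4 lower. The 5 proteins that bind the large subunit RNA early in assembly, Mrpl4, Mrpl13, Mrpl20, Mrpl22 and Mrpl24, had a median of -0.18 and 1 lower member. Among the listed head genes, Mrps10 and Mrps24 were higher while Mrps7, Mrps9 and Mrps14 had values from -0.29 to -0.13, on both sides of 0. The platform (1 of 5 higher, Mrps15), the rim of the exit tunnel (1 of 7 higher, Mrpl32) and the central protuberance (1 of 6 higher, Mrpl18) had medians of -0.01, 0.14 and -0.03 in the authors' deposited table.

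**Figure D2:**
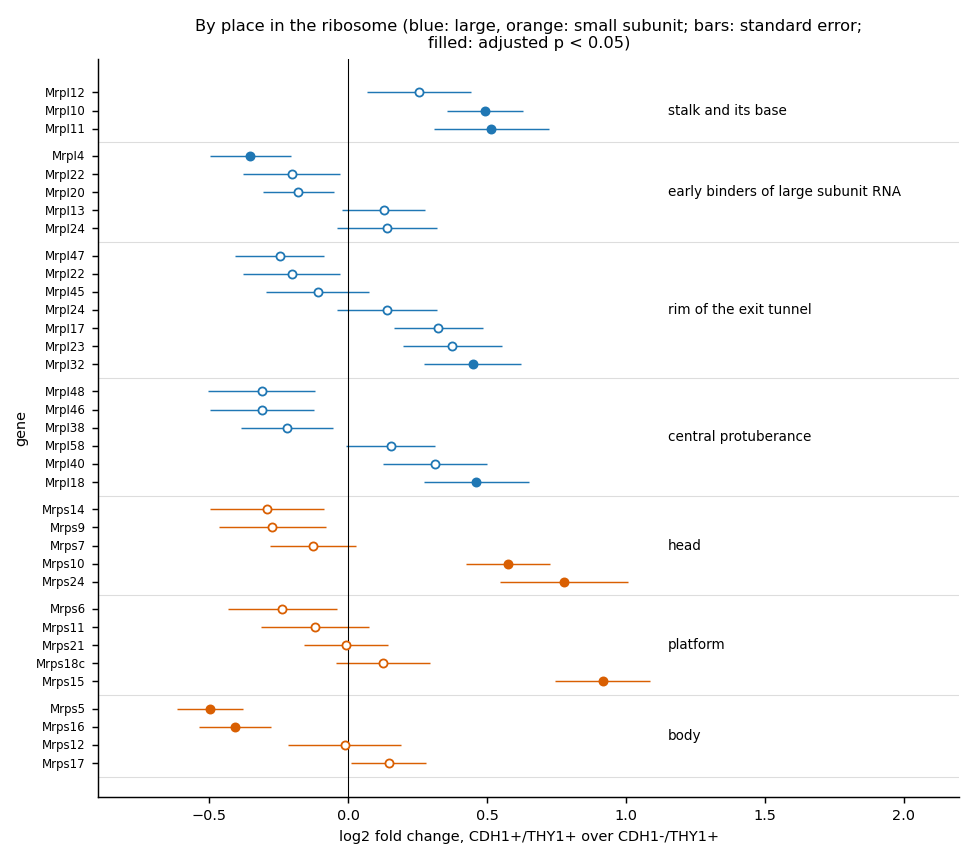
Log2 fold change of CDH1+/THY1+ over CDH1-/THY1+ cells (horizontal), with deposited standard errors as bars, for selected members of 7 places in the mitochondrial ribosome. Blue is the large and orange the small subunit, filled points are called members, and Mrpl22 and Mrpl24 stand in 2 places. The 3 stalk genes all lie above 0 with 2 called higher, whereas the listed head genes of the small subunit spread from -0.29 to 0.78.

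Called increases and decreases lay at different mean counts. Of the 26 members with the lowest mean counts, 195 to 505, 7 were higher and 0 lower by DESeq2. Of the 25 in the middle, 515 to 810, 9 were higher and 2 lower. Of the 26 with the highest, 815 to 1699, 2 were higher and 5 lower. Over all genes with mean counts of 195 to 1699, 22.8% were higher and 21.0% lower. The shares of all genes within each of these parts of the range were not computed. The median log2 fold changes of the members with the lowest, middle and highest mean counts were 0.17, 0.25 and -0.12 in the authors' deposited table. Across the 77 members the Spearman correlation of the log2 fold change with the mean count was -0.37, and it was -0.63 over the 29 small subunit genes and -0.19 over the 48 large subunit genes. Over 10842 protein-coding genes whose mean count reached 100 it was -0.09. These are descriptions across genes measured in the same 6 libraries, which are not independent replicates, and the mean count itself contains both groups. With the mean count per kilobase of transcript, the measure by which levels can be compared between genes, the correlation over the 77 members was -0.20. With transcript length the correlation was -0.09 over the members and -0.13 over the genes with a length.

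**Figure D3:**
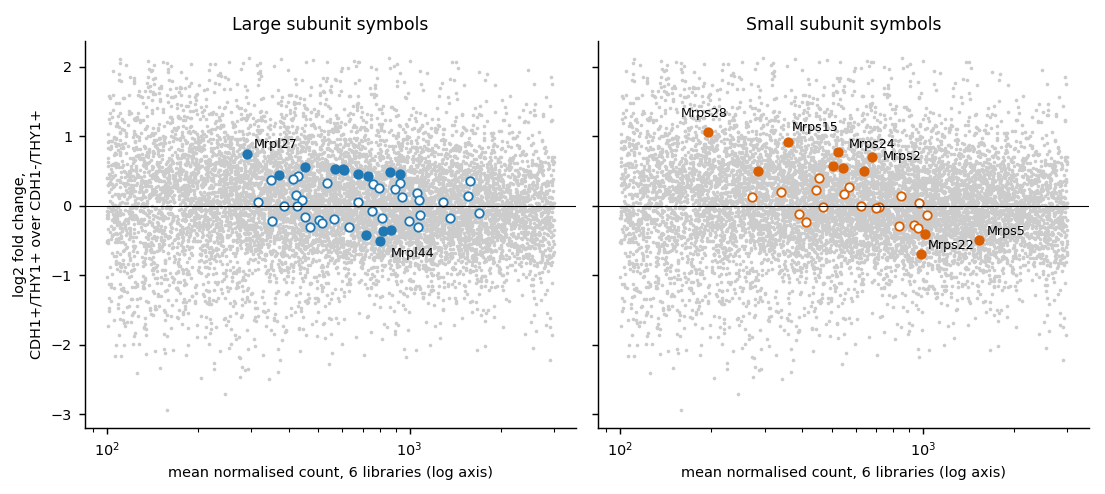
Log2 fold change of CDH1+/THY1+ over CDH1-/THY1+ cells (vertical) against the authors' mean normalised count over 6 libraries (horizontal, log axis) for large (blue) and small (orange) subunit genes over the other tested genes of similar counts in grey; filled points are called members. Called increases lie mostly at lower counts, beginning with Mrps28 at 195, and called decreases at higher ones, with Mrps5 at 1537.

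Levels could be compared between genes only per length of transcript. The mean normalised count per kilobase of the principal transcript, a level over all 6 libraries, had a median of 483. It was lowest for Mrps25 at 90.1 and highest for Mrpl42 at 1935, a 21.5-fold span. The medians of the large and small subunit genes were 493 and 422. The level of Mrpl42 fell to 350 per kilobase when the length of all its annotated exons was used, and the order of the 77 members by the 2 lengths had a Spearman correlation of 0.67. The order of levels is therefore uncertain for genes with several transcripts.

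Several members share exon sequence with other genes, and whether the authors' counting used strand is not given in the sources used here. Exons of 32 members overlapped an exon of another gene, on the opposite strand for 27, over a median of 9.72% of the member's exon length. Among the called members, 9 of 18 higher and 1 of 7 lower had such an overlap. Most were short, but 63.4% of the exon length of Mrps34 was shared with Mapk8ip3 on the opposite strand and 37.0% with Nme3 on the same strand. For Mrps25, which was not called, 69.8% was shared with Nr2c2. The 45 members without overlap had 9 higher and 6 lower, 33.3% called, and a median log2 fold change of 0.05.

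Some mitochondrial ribosomal protein genes start beside another gene that runs the other way. The share of other genes with such a neighbour was not computed. With a protein-coding partner whose mean count reached 100, and start sites at most 1000 bases apart or overlapping by at most 500, there were 24 such pairs holding 25 members; Mrps11 and Mrpl46 are paired with each other. In 18 pairs both genes had log2 fold changes of the same sign and in 6 of opposite sign, with a Spearman correlation of 0.32 over the 24 pairs, given as a description. Both genes were called in 3 pairs, the member alone in 6, the partner alone in 3 and neither in 12. So 6 of 24 partners were called, against 33.5% of all genes with an adjusted p, which include genes with mean counts under 100. Among genes with mean counts in the range of the members, 43.8% were called.

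Those 3 pairs differed in direction. Mrps34 and Eme2, a subunit of a DNA structure-specific endonuclease, were both higher, Eme2 by 0.62 ± 0.25 (adjusted p = 0.0354, the authors' deposited table). Mrpl37 and Cyb5rl, a relative of cytochrome b5 reductase, were both lower, Cyb5rl by 0.77 ± 0.22 on the log2 scale (adjusted p = 0.00225, the authors' deposited table). Mrpl44 fell while Wdfy1, an endosomal adaptor protein, rose by 1.63 ± 0.26 (adjusted p = 1.83e-08, the authors' deposited table). The exons of Mrpl44 and Wdfy1 overlapped on opposite strands over 7.66% of the exon length of Mrpl44.

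Partners that were called beside an uncalled member were Mitd1 (0.86) next to Mrpl30 (0.08), Klc4 (-0.60) next to Mrpl2 (-0.13) and Pnpla7 (-0.92) next to Mrpl41 (-0.16), log2 fold changes in the authors' deposited table. In each of these the partner lay further from 0 than the member. Mrpl27 (0.75) stood next to Eme1 (0.45, adjusted p = 0.0905), and Mrpl50 (0.52) next to Zfp189 (-0.40, adjusted p = 0.0933), in the authors' deposited table.

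**Figure D4:**
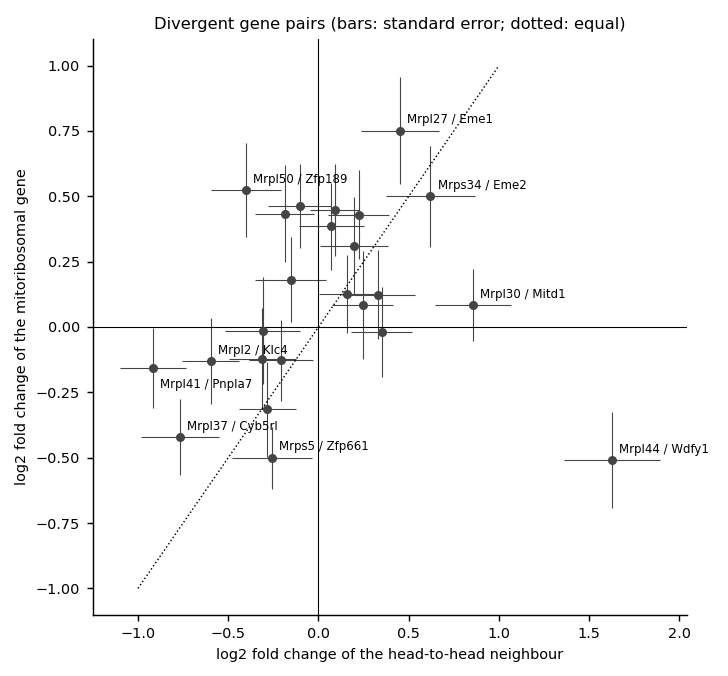
Log2 fold change of the mitochondrial ribosomal protein gene (vertical) against that of its head-to-head neighbour (horizontal) in 24 gene pairs, as deposited by the authors; bars are deposited standard errors and the dotted line marks equal values. Of the pairs, 18 lie in the quadrants of equal sign, and Mrpl44 with Wdfy1 lies farthest into those of opposite sign.

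Promoters of mitochondrial genes are known for motifs of NRF1, ETS factors (GABPA) and YY1. RefSeq promoter windows of GRCm38.p6, 250 bases before to 50 after each start, were found for 68 of the 77 members. On both strands they were searched for CCGGAAG (ETS) and for the longer motifs known by the names NRF1 and YY1, each with 1 position open to any base; matches of different motifs overlapped in 1 member promoter. At least 1 of these was present in 38 members, 55.9%, against 33.7% of 8662 protein-coding genes whose mean count reached 100 and 14.8% of all 27025 genes with a window. For the ETS motif the shares were 36.8%, 21.7% and 9.93%, for NRF1 19.1%, 12.7% and 5.19%, and for YY1 10.3%, 3.12% and 1.17%. The median GC content of the windows was 58.0% for the members, 61.6% for the protein-coding genes and 52.8% for all genes. A match describes letters and is no evidence of binding.

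Motifs occurred in members of either direction. At least 1 match was found in 7 of 16 higher members with a window, 5 of 6 lower members and 26 of 46 uncalled members. Windows of 30 bases around a match are shown for 5 members to let the same motif be seen in genes that moved in opposite directions, with the matching letters in capitals, read on the strand of the gene. The NRF1 motif lies 35 bases before the start of Mrpl44, which fell (chr1:79775973-79776002, plus strand), and 28 bases before that of Mrpl9, which rose (chr3:94443298-94443327, plus strand). The YY1 motif lies 27 bases after the start of Mrpl37, which fell (chr4:107066820-107066849, minus strand), and 9 bases after that of Mrpl27, which rose (chr11:94653790-94653819, plus strand). The ETS motif begins 3 bases before the start of Mrpl33, which rose (chr5:31613937-31613966, plus strand), and 11 bases before that of Mrps22, which fell.
Mrpl44: agaagcacttGCGCACGCGCagtacactag
Mrpl9: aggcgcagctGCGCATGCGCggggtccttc
Mrpl37: gcacgggcaAAGATGGCGGCgtccaggtag
Mrpl27: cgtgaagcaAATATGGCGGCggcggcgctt
Mrpl33: ccgcgcatgccCCGGAAGtagtcgttgagc

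Of 12 regulators of nuclear genes for mitochondria, 11 had an adjusted p, and 3 were higher and 1 lower. The called ones were 33.3% of the 12, a share that counts Ppargc1a, which had no adjusted p. Of all genes with an adjusted p, 33.5% were called. Myc, a transcription factor of growth genes that includes ribosome production among its targets, rose by 1.01 ± 0.26 (adjusted p = 0.000548, the authors' deposited table). Gabpa, the ETS factor named above, rose by 0.61 ± 0.16 (adjusted p = 0.000796) and Yy1 by 0.50 ± 0.16 (adjusted p = 0.00663), in the authors' deposited table. Pprc1, a coactivator of the PGC-1 family, fell by 0.60 ± 0.21 (adjusted p = 0.0182), and Nrf1 had -0.15 ± 0.16 (adjusted p = 0.517), values of the authors' deposited table. No relation between these factors and the members was tested.

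Mitochondrial ribosomal proteins with other symbols gave 1 call among 5, 20.0%. The share was 33.5% of all genes with an adjusted p and 43.8% of genes in the members' range of mean counts. Chchd1, which is a small subunit protein, rose by 1.09 ± 0.17 (adjusted p = 1.64e-09, the authors' deposited table), as far as Mrps28 did. The authors' deposited table gave 0.50 ± 0.22 for Gadd45gip1 (adjusted p = 0.058) and 0.27, 0.13 and 0.03 for Dap3, Ptcd3 and Aurkaip1, none of them called. All 5 values were above 0.

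Genes for assembly of the mitochondrial ribosome were split evenly, with 4 of 25 higher and 4 lower. The share called, 32.0%, was close to the 33.5% of all genes with an adjusted p. It was below the 43.8% of genes with mean counts in the range of the members, a difference that was not tested. The higher ones included Ngrn (0.99) and Trub2 (0.92), with adjusted p-values of 1.65e-06 and 5.04e-05 in the authors' deposited table. The assembly GTPase Mtg1 (0.82) and the RNA methyltransferase Mrm1 (0.51) were the others, with log2 fold changes from the authors' deposited table. The lower ones were led by Rbfa, a maturation factor of the small subunit, which fell by 0.88 ± 0.15 (adjusted p = 9.73e-08, the authors' deposited table). Nsun4 and its partner Mterf4, which act together in the joining of the subunits, had -0.57 and -0.40 in the authors' deposited table, and the methyltransferase Mrm3 had -0.54.

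Of 16 translation factors, 5 were lower and 1 was higher, while 10 had log2 fold changes above 0 and the median was 0.11 in the authors' deposited table. The share called was 37.5%, between the 33.5% of all genes with an adjusted p and the 43.8% of genes in the members' range of mean counts. The elongation factor Gfm1, which moves the ribosome along the message, rose by 0.87 ± 0.18 (adjusted p = 8.87e-06, the authors' deposited table). Tufm, the elongation factor that delivers the aminoacyl-tRNA, fell by 0.55 ± 0.15 (adjusted p = 0.00174, the authors' deposited table). The formyltransferase Mtfmt, the release factor Mtrf1l, the recycling factor Mrrf and the inner membrane protein Letm1 had log2 fold changes of -0.55, -0.49, -0.44 and -0.36 in the authors' deposited table, all called. So factors that work in the same elongation cycle, Gfm1 and Tufm, moved in opposite directions.

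Aminoacyl-tRNA synthesis had 2 of 20 higher, Aars2 (0.90) and Hars2 (0.68), and 4 lower, Nars2 (-0.61), Fars2 (-0.59), Cars2 (-0.52) and Iars2 (-0.30), in the authors' deposited table. The share called was 30.0%, near the 33.5% of all genes with an adjusted p and below the 43.8% of genes in the members' range of mean counts. Mitochondrial transcription and RNA handling had 3 of 22 higher and 7 lower, 45.5% called, with a median log2 fold change of -0.16. Lrpprc, which stabilises mitochondrial messages, fell by 0.66 ± 0.15 (adjusted p = 6.51e-05, the authors' deposited table), while its partner Slirp had 0.26 ± 0.15 (adjusted p = 0.158, the authors' deposited table). Called members of the FASTK family of mitochondrial RNA-binding proteins lay in both directions, with Fastk at 0.73 and Fastkd3, Fastkd1 and Fastkd5 at -0.76, -0.74 and -0.65 in the authors' deposited table, all called. Fastkd2, counted here with the assembly genes, had 0.35 (adjusted p = 0.133) and Tbrg4, also known as Fastkd4, had 0.07 (adjusted p = 0.809), values of the authors' deposited table. The poly(A) polymerase Mtpap (0.53) and the ribonuclease Pnpt1 (0.71) were higher, and the tRNA-processing enzyme Elac2 was lower (-0.64), in the authors' deposited table.

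The members were set beside the products and relatives of the same machinery. Of 80 cytosolic ribosomal protein genes, 29 were higher and 3 lower, with a median log2 fold change of 0.25 in the authors' deposited table. The 3 lower ones were Rpl34 and the testis relatives Rpl10l and Rpl39l. The median mean count of these 80 genes was 11484, beyond the range of the members. Of 83 nuclear genes of oxidative phosphorylation, 20 were higher and 6 lower, with a median log2 fold change of 0.16 in the authors' deposited table. The testis forms Cox7b2 and Cox8c were among those 6. Of the 13 protein-coding genes of the mitochondrial genome, whose messages the mitochondrial ribosome translates, 8 were lower and 1 higher, with a median of -0.45 there. The shares called in these 3 families were 40.0%, 31.3% and 69.2%, against 33.5% of all genes with an adjusted p. The 69.2% is of all 13 mitochondrial genes, of which 12 had an adjusted p. The higher mitochondrial gene was mt-Nd5, at 0.63 ± 0.24 (adjusted p = 0.028), and the lowest value was that of mt-Nd3 (adjusted p = 0.00034), both in the authors' deposited table. Mean counts ran from 1.17 for mt-Nd4l, which had no adjusted p, to 91330 for mt-Co1. Those of mt-Co2, mt-Co3 and mt-Nd3 were 13.3, 32.4 and 99.4. Such uneven counts may not reflect the levels of these messages, and how their reads were mapped was not tested. These mitochondrial messages come from a few long transcripts and are not independent of each other, and no difference between the families was tested.

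**Figure D5:**
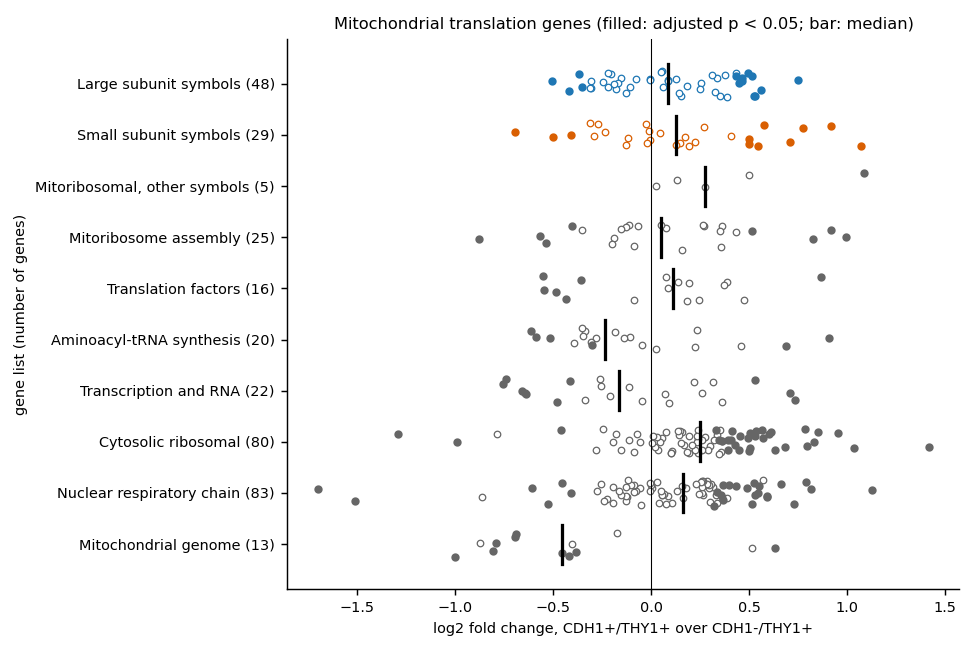
Log2 fold change of CDH1+/THY1+ over CDH1-/THY1+ cells (horizontal) for the genes of each list, 1 point per gene, as deposited by the authors; filled points are called genes and the vertical bar is the median of the list. The large and small subunit genes centre near 0 (medians 0.08 and 0.12), between the mitochondrial genome (-0.45) and the cytosolic ribosomal genes (0.25).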

How the data were processed

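The data were 1 table of the authors' own comparison of 3 CDH1+/THY1+ with 3 CDH1-/THY1+ samples. The submitters' processing notes name build GRCm38.p4, DESeq2 1.12.3, R 3.3.1, featureCounts with Subread 1.5.0-p3, TopHat2 2.1.1 and Trimmomatic 0.32. The annotation release, strand setting and model formula are not given in the sources used here. Per the file headers, the deposited values are a mean normalised count, a signal averaged over the 6 libraries, a fold change and standard error on the log2 scale, a Wald statistic (a score), and a p-value with its adjusted value. Depth per library is unknown, and no value per library was had, so the p-values measure only the spread that the authors' model saw. Standard errors did not exceed 0.639 even for scarce genes, a sign of shrunken fold changes, which understate changes of scarce genes.

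Symbols came from GENCODE M21, matched on the Ensembl identifier; 115 of the 22432 identifiers had no match. The authors' adjustment ran over 19743 tests, of which 532 were not analysed here. By the ranks of the p-values, 6970 of these tests, 35.3%, had an adjusted p under 0.05, against 6438 of the genes analysed here. The tests not analysed were thus called ones, and the 33.5% given as the share over all genes is slightly low. Called genes had an adjusted p under 0.05. Summaries were computed in Python 3.11.15 with pandas 2.3.3, numpy 2.4.6 and scipy 1.17.1. The recomputed adjustments were tested on simulated data. Any member could be named; full statistics were given for the 8 highest and the 7 lower called members and for members with a known role, and for the other lists the called genes with the largest change. Other thresholds, adjustments, filters, centrings and subunit assignments were tried. The members follow from a rule on symbols, but this family, its rule and the lists were chosen with earlier results of these data known.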

Additional observations from a re-analysis of the deposited data

How the results depend on the processing

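Against 18 members higher and 7 lower, an adjusted p under 0.01 left 10 and 3, Benjamini-Yekutieli adjustment 6 and 2, and a change of at least 1.5-fold 5 and 1. For the large subunit (10 and 4) these settings left 4 and 0, 2 and 0, and 1 and 0; at an unadjusted p under 0.05 DESeq2 gave 14 and 5. For the small subunit (8 and 3), Benjamini-Yekutieli adjustment left 4 higher and a change of at least 1.5-fold left 4 and 1. Over all genes (3292 and 3146), an adjusted p under 0.01 left 2107 higher, and Benjamini-Yekutieli adjustment 1666 and 1967. Leaving out members whose exons overlap another gene, an alternative chosen after seeing the data, left 9 higher and 6 lower. Centring on genes whose mean count reached 100, also chosen after seeing the data, gave 14 and 7. The filters on low counts and large standard errors kept both member counts, and the median of the members stayed between 0.05 and 0.08 under every alternative run. Mrps28, Mrps15, Mrpl27, Mrps10, Mrps33, Mrpl10, Mrps22 and Mrps5 were still called under Benjamini-Yekutieli adjustment. No paired analysis was possible because only the authors' comparison was had, with no value per library; for the same reason no library could be left out.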

Other observations

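In the families set beside the mitochondrial ribosomal protein genes, broadly expressed genes and their germ cell relatives moved apart. The X-linked Rpl39 and Rpl10 rose by 1.04 ± 0.13 and 0.95 ± 0.14 on the log2 scale (adjusted p = 1.01e-13 and 7.81e-10, DESeq2, the authors' deposited table). Their autosomal relatives Rpl39l and Rpl10l, which are known for expression in the testis, fell by 1.29 ± 0.23 and 0.99 ± 0.18 (adjusted p = 4.72e-07 and 1.12e-06, the authors' deposited table). Likewise, the X-linked Cox7b rose by 1.13 ± 0.15 and its testis relative Cox7b2 fell by 1.51 ± 0.24 (adjusted p = 1.35e-12 and 6.99e-09, the authors' deposited table). These genes were picked after their values were seen, and where 2 relatives are close in sequence their reads can be split between them.

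Among non-coding genes named for mitochondrial ribosomal proteins, the pseudogene Mrpl48-ps had a mean count of 17.8 and rose by 1.58 ± 0.50 (adjusted p = 0.00703, the authors' deposited table), while Mrpl48 itself had -0.31 ± 0.19 (adjusted p = 0.206, the authors' deposited table). Mrpl23-ps1 had 0.35 ± 0.49 (adjusted p = 0.629, the authors' deposited table).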
